A study of Homo sapiens with 8 samples.

Results

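WT1, TCF21, TBX18, PDGFRA, PDGFRB, POSTN, ACTA2, TAGLN, MYH11 and CNN1 are genes used to mark the epicardium, the stromal cells that derive from it, and smooth muscle. Their chromatin accessibility was followed by ATAC-seq, in which a transposase cuts open DNA, through the differentiation of human embryonic stem cells into cardiomyocytes. For each of the 10 genes, all peaks that overlapped the gene span or the 20 kb on either side were collected from the 8 peak lists and merged. This gave 128 regions of the 285909 merged regions of the genome.

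All libraries were made from RUES2, a widely used line of human embryonic stem cells, and each stage had 2 replicate libraries. The hESC libraries were made on day 0, when the cells had been in E8 medium with the GSK3 inhibitor CHIR-99021 since the day before. MES libraries came from day 2, in RBA medium with CHIR-99021. CP libraries came from day 5, after the Wnt inhibitor Xav-939 had replaced CHIR-99021, and CM libraries from day 14, in RPMI with B27. All stages thus shared 1 cell line and 1 protocol, no stage was sorted, and every stage after hESC had been through the CHIR-99021 step. The CM cultures were, however, selected for purity. The paper states that only samples with a high enough share of cells positive for cardiac troponin T, by flow cytometry, were used downstream. Cells other than cardiomyocytes that remained in the CM cultures were not measured here. Whole cultures were lysed, so that fewer cells of a type and a lower accessibility per cell cannot be told apart. The labels number the replicates without saying whether they came from separate differentiations, and p-values measure the spread between these libraries only.

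The epicardium is the cell layer that covers the heart. WT1, TCF21 and TBX18 are transcription factors of this layer and of its precursors. Epicardial cells can leave the layer and become fibroblasts and mural cells, which carry the platelet-derived growth factor receptors PDGFRA and PDGFRB, secrete matrix proteins such as periostin (POSTN), or build the contractile apparatus of smooth muscle from alpha-actin (ACTA2), transgelin (TAGLN), smooth muscle myosin (MYH11) and calponin (CNN1). Many smooth muscle genes are controlled through CArG boxes, the binding sites of serum response factor, and ACTA2, TAGLN and CNN1 are also switched on for a time in immature cardiomyocytes.

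The sequences below are short parts of some of the regions described, cut around a motif or a summit. They were read from GRCh38 (hg38) and are written 5′ to 3′ on the strand of the gene. Fold was measured per region, so no difference is placed at these bases. Motifs were searched on both strands of 200 bp around the summit of every region. A CArG box is CC and GG around 6 bases that are all A or T. It was present in 1.03% of all 285909 regions and in 4 of the 128. These were CNN1 intron 1, the region 19.9 kb upstream of PDGFRB, the TAGLN promoter and MYH11 intron 3 at 49.1 kb. The TAGLN and MYH11 regions were called in no comparison. A CArG-like box, in which 1 of the 6 inner bases may differ, was present in 6.66% of all regions and in 11 of the 128, and every CArG box is also counted as one. The ACTA2 promoter (chr10:88952780-88952899, minus strand) is shown from position -126 to -7 relative to the gene start and holds 2 CArG-like boxes, in capitals. The first intron of CNN1 (chr19:11539910-11539939, plus strand) holds a CArG box, also in capitals. The CNN1 site lies near the start of a shorter transcript, and only 30 bases are shown.
ACTA2 promoter: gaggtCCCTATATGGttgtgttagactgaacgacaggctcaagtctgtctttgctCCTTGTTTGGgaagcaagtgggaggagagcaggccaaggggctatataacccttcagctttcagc
CNN1 intron 1: agacgccgcgCCTTATAAGGcggcctcggg

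Regions away from promoters are shown for some of the genes with large differences between stages, and not every called region is shown. Among those left out are the TBX18 regions in the 3′ UTR and at 35.8 kb, MYH11 at 35.0 kb and POSTN intron 2. Of the regions lower in CM than in hESC, those shown are the ones with a CTCF core, defined below. The stretches within MYH11 (chr16:15811988-15812087, minus strand) and PDGFRA (chr4:54254815-54254914, plus strand) surround the summits of regions that were higher in CM and in MES, respectively, and none of the 7 motifs searched was found in them. Besides the boxes above these were GATAA (in 22.7% of all regions), CAGCTG (17.6%), GGAATG (14.6%), TGANTCA (8.08%) and a CTCF core (7.62%). In the stretch upstream of PDGFRB (chr5:150175710-150175809, minus strand) capitals mark a CArG box and a match to a CTCF core, taken here as CCA, any 2 bases, AG, any base and GG, on either strand. In those downstream of TBX18 (chr6:84686134-84686233, minus strand) and WT1 (chr11:32386139-32386238, minus strand) capitals mark the same CTCF core, and in WT1 also TGANTCA, the AP-1 site. A CAGCTG match in the PDGFRB stretch is left in lower case.
MYH11 intron 3: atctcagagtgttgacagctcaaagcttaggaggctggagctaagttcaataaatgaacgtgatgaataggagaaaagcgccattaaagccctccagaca
PDGFRA intron 1: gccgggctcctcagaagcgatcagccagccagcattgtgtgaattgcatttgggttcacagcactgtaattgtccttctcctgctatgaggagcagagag
PDGFRB upstream: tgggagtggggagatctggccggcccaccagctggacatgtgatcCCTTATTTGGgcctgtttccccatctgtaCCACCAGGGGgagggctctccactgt
TBX18 downstream: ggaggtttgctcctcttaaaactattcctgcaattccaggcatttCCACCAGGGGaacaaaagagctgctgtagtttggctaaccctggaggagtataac
WT1 downstream: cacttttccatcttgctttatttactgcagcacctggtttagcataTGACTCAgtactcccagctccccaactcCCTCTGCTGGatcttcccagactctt

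Values are the fold of the ATAC-seq pileup at a peak over its local background, as in the deposited lists. A library without a peak in a region has no value there. The lists held between 55777 peaks (CM replicate 2) and 156179 peaks (MES replicate 2), and a peak had to reach a fold of 2.63 to 3.15, depending on the library, to be called over a mean background. The read depth of the libraries is not used here. The 2 replicates of CP differed most, by a mean of 0.38 on the log2 scale over the regions of these genes against 0.21 to 0.24 at the other stages. Marker promoters were read as a check of the stages. Of 10 cardiomyocyte genes, 5 had a promoter peak in both hESC libraries and 9 in both CM libraries. Of 6 pluripotency genes 5 had one in both hESC libraries and 3 in both CM libraries, although LIN28A was higher in CM. The shares over 19962 protein-coding genes were 75.1% at hESC and 69.6% at CM. POU5F1 had no region within 1 kb of its annotated start in any library. Of 6 endothelial genes, 1 had a promoter peak in both CM libraries, and CDH5 had none in any library. Of 6 mesoderm genes, 6 had one in both libraries at hESC, at MES and at CP, and 5 at CM. None of their promoters was called between hESC and MES, and in CM against hESC MESP1 was higher and MSGN1 lower. The mesoderm list thus did not set MES apart from hESC.

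Of the 128 regions, 22 (17.2%) had a peak in all 8 libraries, against 9.83% of all regions of the genome, and 42 (32.8%) had a peak in a single library, against 40.7%. A peak in both libraries of a stage was found in 55 regions at hESC (43.0%), 54 at MES, 51 at CP and 35 at CM (27.3%). Over the genome the shares were 29.6% at hESC and 14.8% at CM, and the difference from the genome was not tested. By position, 49 of the regions lay in introns, 32 upstream of the gene, 25 downstream and 5 in coding exons. Another protein-coding gene had the nearer start in 36 regions, 11 of them around PDGFRB (CSF1R and CDX1), 8 around MYH11, 6 each around ACTA2 and CNN1, and 5 around TAGLN. The WT1, TCF21, TBX18, PDGFRA and POSTN windows held no such region.

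Limma tests, two-sided, compared log2 fold between stages after each library was centred on its median, with Benjamini-Hochberg adjustment over all regions of the genome and a threshold of 0.05. For the 76 regions with a peak in both libraries of at least 1 stage, a library without a peak was set at its call limit. This is the lowest fold called in that library over the genome-mean background. Peaks were also called below it, down to 1.64 in hESC replicate 2, where the limit was 2.83. A library without a peak can therefore be set above one with a peak. Where a stage had no peak, the size of the fitted difference depends on the call limit, on the centring and on the background used, and is no bound. With CM set against hESC, 12 of the 76 regions passed, 6 higher and 6 lower, where 21.4% of the 131956 such regions of the genome did, 7.93% higher and 13.4% lower. The median difference was 0.10 over the 76 and -0.0031 over all of them (log2). Without centring, which leaves CM 0.22 below hESC at the median region (log2), the split was 5 higher and 13 lower, and with quantile normalisation it was 13 higher and 9 lower. Among the 22 regions with a peak in every library 2 passed, both higher in CM, against 12.3% of 28115 genome regions, 6.28% higher and 6.04% lower. The 12 regions lay in or near 8 of the 10 genes, TCF21 and PDGFRA being the ones without.

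**Figure D1:**
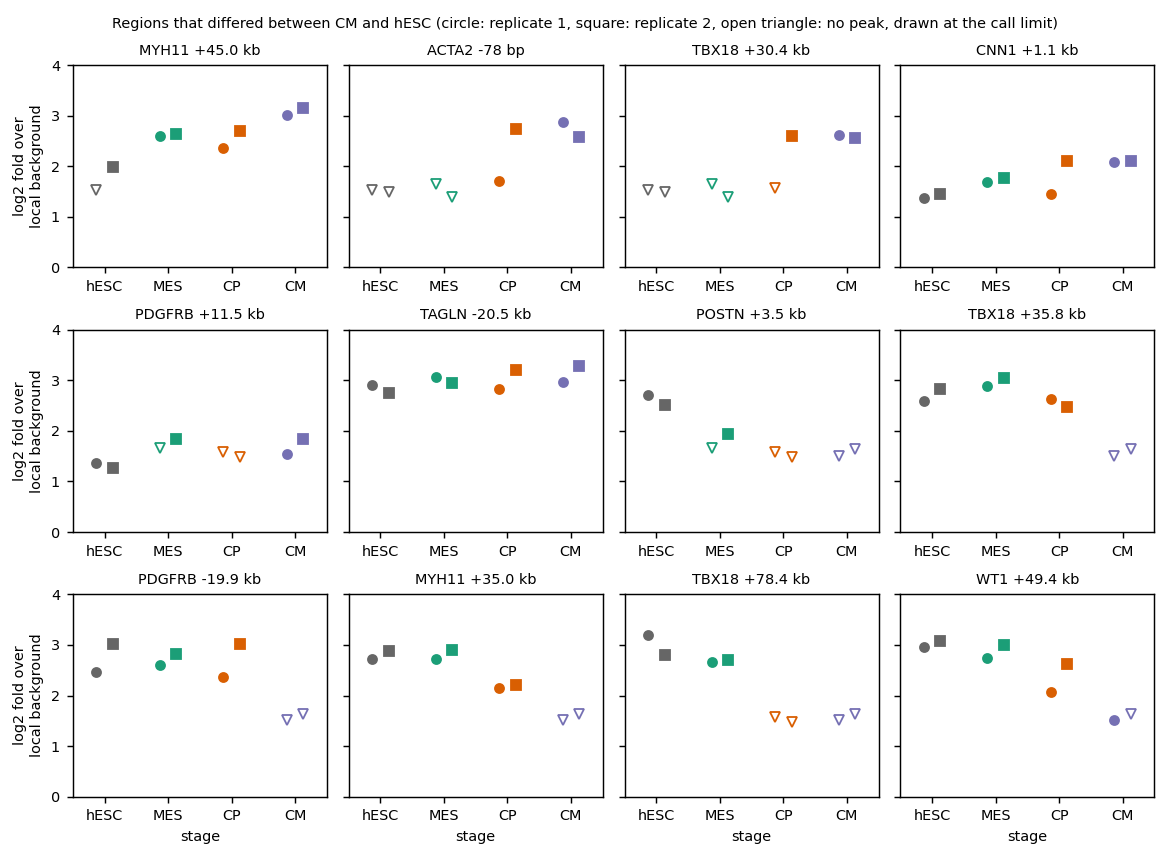
The 12 regions that differed between CM and hESC, each with the distance of its summit from the gene start. The vertical axis is log2 fold over local background by stage, circles are replicate 1, squares replicate 2, and open triangles stand at the call limit of a library without a peak. In the ACTA2 region at -78 bp no hESC or MES library had a peak and both CM libraries did.

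Fewer of these regions passed between successive stages. From hESC to MES 4 of 76 were higher and 1 lower, where 16.1% of genome regions passed (8.39% higher and 7.69% lower), and 3 of the 4 lay in or near PDGFRA. From MES to CP 0 were higher (6 at an unadjusted limma p under 0.05, against 9489 of 131956 over the genome) and 3 lower, 2 of them in PDGFRA, where 11.7% of genome regions passed (3.09% higher and 8.66% lower). From CP to CM 1 was higher and 1 lower, where 6.09% of genome regions passed (3.09% higher and 3.00% lower). Of the 22 regions open in every library, 0 passed in these steps. Over the genome 0.871% passed from hESC to MES (0.694% higher and 0.178% lower), 0.455% from MES to CP (0.245% and 0.210%) and 2.10% from CP to CM (0.391% and 1.71%). At an unadjusted limma p under 0.05 the 22 regions held 2, 1 and 6 (9.09%, 4.55% and 27.3%), against 8.34%, 9.95% and 19.5% of genome regions.

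WT1 encodes a zinc finger factor that marks the epicardium and the developing kidney. Its promoter (chr11:32435422-32435940, 51 bp before the start) was open at a low level and lost its peaks. The fold was 3.11 and 2.88 in hESC, absent and 2.55 at MES, 2.92 and absent at CP, and no CM library had a peak. These values lie at or near the call limit, so that the test cannot register the loss, and no step passed. In exon 1, the region 829 bp in had peaks in hESC replicate 2 (2.23), MES replicate 1 (2.42) and CP replicate 1 (2.48). The region 442 bp in had them in MES replicate 2 (2.38) and CP replicate 2 (2.40). Neither had a peak in CM, nor in both libraries of any stage, so neither was tested. The strongest regions stood behind the gene. At 61.1 kb from the start the fold was 6.29 and 10.6 in hESC, 6.1 and 8.51 at MES, 6.2 and absent at CP, and 4.13 and absent at CM.

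The WT1 region that differed lay 49.4 kb from the start, 3′ of the gene (chr11:32386008-32386479). Its fold was 7.77 and 8.40 in hESC, 6.73 and 7.99 at MES, 4.20 and 6.18 at CP, and 2.85 and absent at CM. Each CM library was thus below every other library. The difference from hESC was -1.22 ± 0.22 (log2, SE, n = 2 libraries per stage, limma adjusted p = 0.00101), and it passed under all 16 alternatives tried. Inside the gene, intron 3 held a region open in all libraries, with folds of 3.09 to 4.55, which no comparison called.

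TCF21, a basic helix-loop-helix factor of epicardial and fibroblast precursors, had 5 regions. Its promoter (chr6:133888856-133890143) was open in every library, at 6.33 and 4.59 in hESC, 4.35 and 4.12 at MES, 4.39 and 4.73 at CP and 3.56 and 3.90 at CM. Both CM values were lower than all others, but the step did not pass (log2 difference -0.31 after centring). A region 6.7 kb downstream was open in all libraries with folds of 3.34 to 5.81. Opposite patterns stood within the gene. Intron 1, 2.4 kb in, had peaks in the 6 libraries up to CP at 2.93 to 3.74 and in neither CM library. The region at 5.9 kb had peaks in the CM libraries only, at 3.94 and 3.10. Neither passed a test, and both lie close to the call limit.

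TBX18, a T-box factor of the proepicardium and of the sinus horn, had the strongest promoter of the epicardial factors (chr6:84763531-84764972). The fold was 7.08 and 4.90 in hESC, 6.62 and 6.17 at MES, 6.45 and 8.62 at CP, and 7.26 and 7.40 at CM. Both CM values lay above both hESC values, but the difference did not pass (0.54, adjusted p = 0.0698) and CP overlapped all stages. Another region 10.3 kb upstream was as open throughout, at 5.81 to 7.83. The differences lay along the gene and behind it, and they went both ways.

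A TBX18 region in the 3′ UTR, exon 8, 30.4 kb from the start (chr6:84733837-84734243), had no peak in hESC, MES and CP replicate 1, a fold of 6.04 in CP replicate 2, and 6.14 and 5.94 at CM. It was higher in CM than in hESC by 1.30 ± 0.27 (log2, SE, limma adjusted p = 0.00283), and it passed in all 16 alternatives. Elsewhere in its window, 2 regions moved the other way.
At 78.4 kb, beyond the gene (chr6:84686042-84686365), the fold was 9.19 and 6.94 in hESC and 6.33 and 6.48 at MES, and no CP or CM library had a peak. It fell at the step from MES to CP (-1.11 ± 0.26, adjusted p = 0.0101) and was lower in CM than in hESC (-1.20 ± 0.26, adjusted p = 0.00317). The MES to CP call was lost without MES replicate 1 (adjusted p = 0.0522), MES replicate 2 (0.0611) or CP replicate 2 (0.0832), and with lists of equal length, where the difference was -0.47 (0.614). A genome-mean background ended both calls (0.0586 and 0.0515), and lists of equal length ended that of CM against hESC as well (0.0523).
At 35.8 kb (chr6:84728627-84728952) the fold was 6.05 and 7.12 in hESC, 7.46 and 8.30 at MES, and 6.2 and 5.58 at CP, and it was absent at CM. Here CM was lower than hESC by a log2 difference of -0.92 ± 0.23 (adjusted p = 0.00942, 0.0876 without hESC replicate 2, 0.108 with lists of equal length and 0.141 with a genome-mean background).

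**Figure D2:**
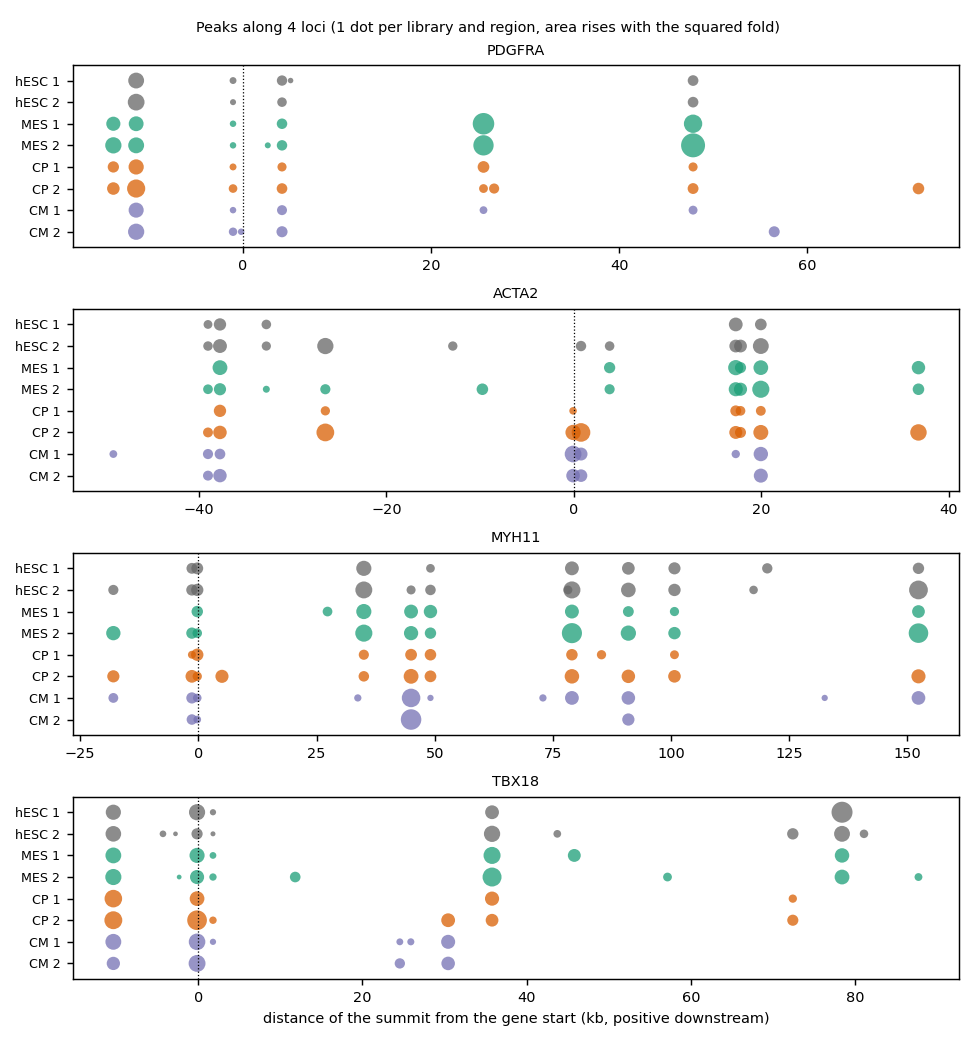
Peaks along PDGFRA, ACTA2, MYH11 and TBX18 by distance from the gene start in kb (dotted line), with 1 row per library. Each dot is a region with a peak and its area rises with the squared fold. The PDGFRA dots at 25.6 and 47.8 kb are largest in MES, and the ACTA2 dots at the start appear in CP, in CM and, 770 bp into intron 1, in hESC replicate 2.

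PDGFRA, the receptor of fibroblasts that also marks early mesoderm, differed at MES in 3 of its 12 regions. Around 1.0 kb before its start (chr4:54226623-54228525) the fold was low and even, at 2.65 to 3.78 over the 8 libraries. The region 11.3 kb upstream was open throughout, at 6.49 to 7.95, and that 4.2 kb into intron 1 at 3.99 to 4.86. No difference was called in these 3 regions. The 3 regions with one were all higher in MES.

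The first, 25.6 kb into intron 1 (chr4:54254397-54255123), had no peak in hESC, folds of 9.42 and 8.89 at MES, 5.13 and 3.86 at CP, and 3.41 and absent at CM. MES stood above every other library. The step from hESC to MES was 1.57 ± 0.27 (log2, SE, limma adjusted p = 0.00145), called in all 16 alternatives. The step from MES to CP was -1.00 ± 0.27 (adjusted p = 0.0236) and was not called without MES replicate 1 (0.111), MES replicate 2 (0.0824) or CP replicate 2 (0.142), nor with quantile normalisation (0.114) or a fold of 1 for a library without a peak (0.437).
The region at 47.8 kb, in intron 12 (chr4:54276652-54277510), was open before and after: 4.69 and 4.67 in hESC, 8.04 and 10.5 at MES, 3.98 and 4.76 at CP, and 3.90 and absent at CM. It rose by 0.87 ± 0.24 into MES (adjusted p = 0.0194) and fell by 1.04 ± 0.24 on the log2 scale into CP (adjusted p = 0.00995). The rise was lost without hESC replicate 1 (0.0811), hESC replicate 2 (0.0959) or MES replicate 2 (0.169), and the fall without MES replicate 2 (0.109) or CP replicate 2 (0.0691). A fold of 1 for a library without a peak ended both (0.477 and 0.417).
The region 13.8 kb upstream (chr4:54215392-54215714) had no peak in hESC or CM and folds of 6.19 and 7.12 at MES and 4.94 and 5.5 at CP. It rose into MES by 1.11 ± 0.24 (adjusted p = 0.00532), again in all 16 alternatives.

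PDGFRB, the receptor of pericytes and smooth muscle, had the most regions of the 10 genes, 22. Its promoter, over the 5′ UTR (chr5:150155499-150156037), was open in all libraries. The fold was 5.88 and 4.65 in hESC, 4.24 and 5.95 at MES, 4.33 and 7.10 at CP, and 3.56 and 4.92 at CM, and the stages overlapped. In intron 8, 25.1 kb in, the fold ran from 6.79 and 4.93 in hESC to 2.99 and 3.39 at CM, with every CM value below the others, but the difference did not pass (-0.64, adjusted p = 0.0503).

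The PDGFRB region that fell lay 19.9 kb upstream (chr5:150175510-150176042), nearer to the start of CDX1, an intestinal homeobox gene. The fold was 5.56 and 8.07 in hESC, 6.08 and 7.04 at MES, 5.13 and 8.12 at CP, and absent at CM. It was lower in CM than in hESC by a log2 difference of -0.95 ± 0.24 (adjusted p = 0.00932, and 0.166 without hESC replicate 2) and lower than in CP by -0.83 ± 0.24 (adjusted p = 0.0482). The CP call was lost without any one of the MES, CP and CM libraries, with adjusted p of 0.0658 to 0.267, with lists of equal length (0.0560) and with the median of the peaks in a region (0.0564). A weak region in intron 1, 11.5 kb in, had 2.57 and 2.42 in hESC, absent and 3.58 at MES, no peak at CP, and 2.90 and 3.59 at CM. It was called higher in CM than in hESC (0.59 ± 0.19, adjusted p = 0.0370). That call was lost without hESC replicate 1 (0.252), hESC replicate 2 (0.331), MES replicate 1 (0.0515), CM replicate 1 (0.0897) or CM replicate 2 (0.232), at −log10 q of at least 5 (0.169), with a genome-mean background (0.160) and with a fold of 1 for a library without a peak (0.457).

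POSTN, a matrix protein of cardiac fibroblasts and valves, had 4 regions and none within 1 kb of its start. The region 18.7 kb upstream had a fold of 5.16 in hESC replicate 2, 7.20 in CP replicate 2, and 3.95 and 7.07 at CM, with no peak elsewhere. That 52.5 kb from the start, beyond the gene, was open in the 6 libraries up to CP at 4.4 to 5.88 and in neither CM library. Neither passed a test. In intron 2, 3.5 kb in (chr13:37595164-37595603), the fold was 6.53 and 5.70 in hESC, absent and 3.85 at MES, and absent at CP and CM. It was lower in MES (-0.91 ± 0.25, adjusted p = 0.0177) and in CM (-0.81 ± 0.25, adjusted p = 0.0250) than in hESC. The MES call was lost without hESC replicate 1 (0.150), MES replicate 1 (0.0999) or MES replicate 2 (0.0673), and the CM call without any one of the hESC or CM libraries (0.0624 to 0.210). A fold of 1 for a library without a peak ended the MES call (0.113) and a genome-mean background the CM call (0.160). The POSTN promoter in RefSeq (GRCh38.p14) had an observed over expected CpG ratio of 0.264, at the 29.6th percentile of 27305 promoters, against 0.796 for TBX18.

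ACTA2, the smooth muscle alpha-actin, gained its promoter during differentiation. The region 78 bp before the start (chr10:88952637-88953099), which holds both CArG-like boxes, had no peak in hESC or MES, folds of 3.30 and 6.68 at CP, and 7.32 and 5.96 at CM. It was higher in CM than in hESC by 1.43 ± 0.28 (log2, SE, limma adjusted p = 0.00185) with hESC set at the call limit, and it passed in all 16 alternatives, at 1.21 without centring and 2.94 with a fold of 1 for a library without a peak. A region 770 bp into intron 1 had folds of 4.55 in hESC replicate 2, 8.16 in CP replicate 2, and 5.68 and 5.52 at CM. It did not pass.

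The rest of the ACTA2 window did not follow its promoter. The region past the 3′ end was open in every library at 4.30 to 7.51, and that at the upstream start shared with FAS, 37.8 kb before the start used here, at 4.68 to 6.49. A region 3.8 kb in, over the 5′ UTR in exon 2, had peaks in hESC replicate 2 (4.18) and in MES (4.94 and 4.44) only. One 36.8 kb from the start, nearer to STAMBPL1, had peaks in MES (5.88 and 5.06) and in CP replicate 2 (7.20). None of these was called.

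TAGLN, a calponin-related actin-binding protein, was open at its promoter from the hESC stage on. The fold was 4.61 and 4.22 in hESC, 4.16 and 4.01 at MES, 3.83 and 4.6 at CP, and 3.49 and 4.82 at CM. The stages overlapped fully and no step was called. The region 1.3 kb upstream had peaks in the 6 libraries up to CP, at 3.28 to 4.57, and in neither CM library. The 1 region that passed lay 20.5 kb upstream (chr11:117178493-117179521) at SIDT2. Its fold was 7.47 and 6.71 in hESC, 8.42 and 7.74 at MES, 7.17 and 9.25 at CP, and 7.84 and 9.72 at CM. CM replicate 1 thus lay below MES replicate 1 and CP replicate 2. CM was called higher than hESC (0.52 ± 0.16 over the regions open in every library, adjusted p = 0.0410). This call was lost without either hESC library, either MES library or CM replicate 2 (0.0532 to 0.245), without centring (0.372), with quantile normalisation (0.0695) and with the median of the peaks in a region (0.0681).

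MYH11, the heavy chain of smooth muscle myosin, showed no gain at its start. The promoter (chr16:15856847-15857504, 249 bp before the start) went from 5.19 and 5.38 in hESC over 5.02 and 4.17 at MES and 5.41 and 4.06 at CP to 3.76 and 3.36 at CM. Both CM values were the lowest, but the difference of -0.35 was not called. The change lay deep in the gene.

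In intron 3, about 45 kb from the start (chr16:15811478-15812354), hESC replicate 1 had no peak and replicate 2 a fold of 3.96. The fold was 6.07 and 6.24 at MES, 5.16 and 6.49 at CP, and 8.12 and 8.97 at CM. CM stood above all other libraries and hESC below them. The difference between CM and hESC, 1.55 ± 0.22 (log2, SE, limma adjusted p = 0.000206), passed in all 16 alternatives. It was larger than those of ACTA2 and of the TBX18 3′ UTR region, but with a fold of 1 for a library without a peak it was smaller, at 2.32 against 2.94 and 2.81. The steps hESC to MES (0.75 ± 0.22, adjusted p = 0.0278) and CP to CM (0.85 ± 0.22, adjusted p = 0.0291) passed too. The first was lost without hESC replicate 1 (0.287), MES replicate 1 (0.159) or MES replicate 2 (0.120), and the other without any one of the MES, CP or CM libraries (0.0544 to 0.134) and without centring (0.213). A fold of 1 for a library without a peak ended both (0.153 and 0.417).
In the same intron, 35.0 kb from the start (chr16:15821873-15822211), the fold was 6.64 and 7.41 in hESC, 6.63 and 7.49 at MES, 4.44 and 4.61 at CP, and absent at CM. This region was lower in CM than in hESC by a log2 difference of -1.01 ± 0.23 (adjusted p = 0.00470, and 0.0664 with a genome-mean background). Thus 2 regions in intron 3 moved in opposite directions. Further regions at 49.1, 79.0, 91.0, 100.7 and 152.3 kb were open at most stages and did not pass.

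CNN1, the calponin of smooth muscle, was open at its canonical start in every library (chr19:11538491-11539212), at 3.49 and 3.99 in hESC, 3.42 and 2.67 at MES, 3.93 and 5.01 at CP and 3.47 and 3.86 at CM. No difference was called there. The region that passed lies 1.1 kb further in (chr19:11539746-11540485), with its summit 98 bp after the start of a shorter transcript and the CArG box inside it. The fold was 2.61 and 2.75 in hESC, 3.21 and 3.40 at MES, 2.73 and 4.32 at CP, and 4.26 and 4.34 at CM. The value of CP replicate 2 lay among the CM values and that of CP replicate 1 among those of hESC. CM was higher than hESC by 0.90 ± 0.15 (adjusted p = 0.00241 over the regions open in every library), and the call held without each library in turn but not without centring (0.0606). Fitted among the 76 regions, the same difference (0.90 ± 0.22, adjusted p = 0.00761) was not called without hESC replicate 1 (0.0910), hESC replicate 2 (0.0668) or CM replicate 1 (0.0594), nor with a fold of 1 for a library without a peak (0.0589).

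The strongest peaks of the CNN1 window belonged to other starts. They were the regions 9.7 kb upstream, near ECSIT, with 8.84 to 11.6, and 20.5 kb from the start, near ELOF1, with 9.91 to 11.4, and neither was called.

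**Figure D3:**
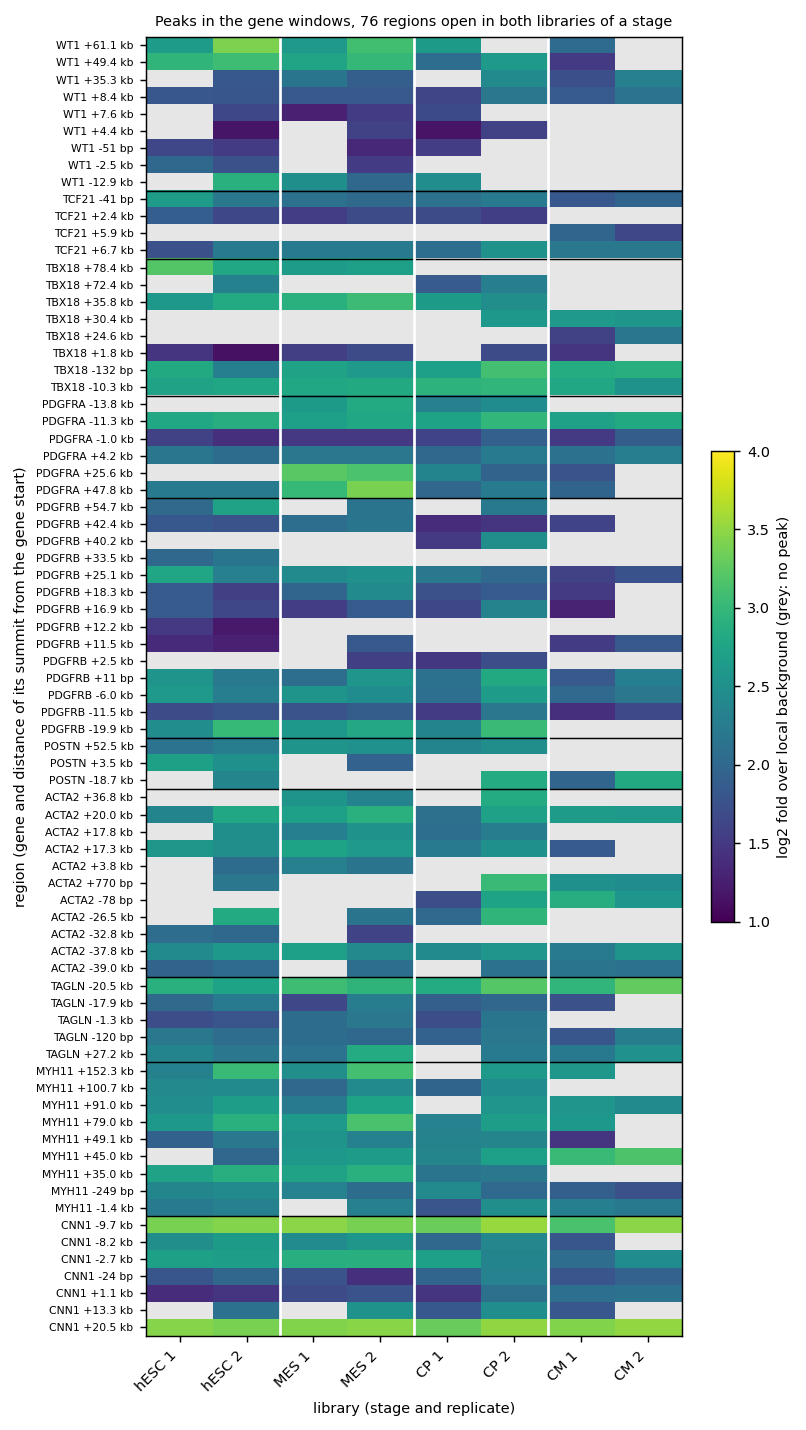
Log2 fold over local background in the 76 regions with a peak in both libraries of at least 1 stage, with 1 column per library and 1 row per region, named by gene and distance from the gene start. Grey is no peak. Most promoters keep their colour across the 8 columns, and CM replicate 2 has the most grey cells. Over all 128 regions it had a peak in 38, and CM replicate 1 in 65.

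Regions were also counted by presence alone. Between hESC and CM, 4 regions were gained, with a peak in both CM libraries and in neither hESC library, and 15 were lost (genome: 3.15% and 13.5% of all regions). Between CP and CM 3 were gained and 14 lost (genome: 1.41% and 6.33%), from hESC to MES 3 and 2 (6.02% and 3.95%), and from MES to CP 3 and 2 (2.14% and 6.13%). CM replicate 2 had the shortest list, and with lists of equal length the counts between hESC and CM were 9 gained and 9 lost.

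**Figure D4:**
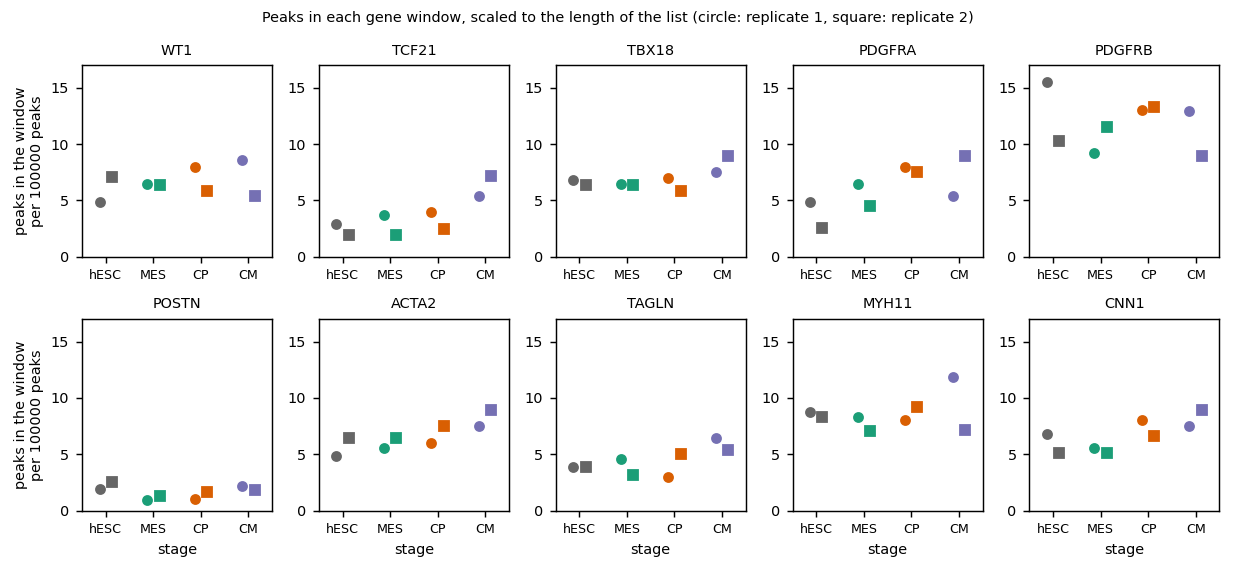
Peaks in the window of each gene per 100000 peaks of the list, by stage, with circles for replicate 1 and squares for replicate 2. TCF21 is highest in the 2 CM libraries, at 5.39 and 7.17, and PDGFRB has the most peaks in every library except CM replicate 2.

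The number of peaks in a window moves with the length of the list and was therefore scaled to 100000 peaks. Of the 9 genes with enough peaks to test, 2 had more in CM than in hESC and 0 fewer, where 8.56% of 17086 genes passed (5.96% higher and 2.60% lower) and the median gene rose by 0.31 (log2). TCF21 had 3 and 3 peaks in hESC and 5 and 4 at CM, or 2.91 and 1.92 against 5.39 and 7.17 per 100000 (1.33 ± 0.39, adjusted p = 0.0170). Some of these CM peaks share a region. The promoter region held 2 peaks in CM replicate 1, and the region 6.7 kb downstream held 2 in CM replicate 2. In both hESC libraries each of these regions held 1. PDGFRA had 5 and 4 peaks in hESC and 5 and 5 at CM, a scaled difference of 0.96 ± 0.33 (adjusted p = 0.0473). Both rest on few peaks and on the scaling. Without it, neither was called (0.224 for TCF21 and 0.586 for PDGFRA). Without hESC replicate 2 the adjusted p was 0.312 for TCF21 and 0.620 for PDGFRA, and without CM replicate 2 it was 0.170 and 0.446. Leaving out any one of the MES and CP libraries also ended the PDGFRA call (0.0648 to 0.0692).

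Other genes of the same cell types were read at their promoters. Of 16 further epicardial genes, 13 had a promoter peak in both hESC libraries and 13 in both CM libraries, against 75.1% and 69.6% of 19962 protein-coding genes. In CM against hESC, HAND2 and TBX20, which are also expressed in cardiac muscle, were higher and UPK1B, a uroplakin of the mesothelium, was lower. Of 16 stromal genes, 10 had a promoter peak in both hESC and 11 in both CM libraries. The collagen receptor DDR2 and the proteoglycan LUM were higher in CM and the proteoglycan DCN lower. The LUM promoter had folds of 5.26 in hESC replicate 2, 3.99 and 6.81 at CP, and 5.92 and 7.14 at CM. The DCN promoter had 4.84 and 8.37 in hESC and no peak in any later library.

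Of 16 smooth muscle genes, 15 had a promoter peak in both hESC and 14 in both CM libraries. MCAM, MYLK and RGS5 were higher in CM. The adhesion molecule MCAM had the largest difference, from 2.12 and 1.93 in hESC over 2.46 and 2.62 at MES and 2.88 and 3.46 at CP to 3.53 and 4.05 at CM (1.12 ± 0.16, limma adjusted p = 0.000188). Of all 15608 promoter regions tested, 6.16% were higher in CM and 1.89% lower. Of the 10 cardiomyocyte genes, 5 were higher, among them TTN with no peak and 3.58 in hESC and 8.25 and 8.54 at CM (1.6 ± 0.24, adjusted p = 0.000305).

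Motifs were counted in the 12 regions that differed between CM and hESC, and these small counts were not tested. The CTCF core and the CArG-like box were chosen after values or sequences of these regions were seen. Their counts therefore describe these regions only and are no support for a link to the direction of change. The CTCF core was in 3 of the 6 lower regions, those of WT1, TBX18 and PDGFRB shown above, and in none of the 6 higher ones. Over the genome it was in 12.4% of the regions lower in CM and 4.5% of those higher. A CArG-like box was in 3 of the 6 higher regions (ACTA2, CNN1 and the TAGLN region at SIDT2), and in 1 of the 6 lower ones (PDGFRB), against 7.77% of all higher and 7.56% of all lower regions. GATAA, the letters bound by GATA factors, was in 45% of the regions higher in CM over the genome and in none of these 6. A match is a description of the letters in the window.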

How the data were processed

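ATAC-seq was analysed in 8 libraries of RUES2 cells, 2 at each of 4 stages, grouped by their labels. Per the labels and the methods of the study, the authors mapped paired-end reads to hg38 with BWA 0.7.13, discarded secondary alignments, those of mapping quality 30 or less and, by Picard, duplicates, and ran MACS2 2.1.0 library by library (no model, q of 0.01, reads shifted by 100 bp and extended to 200 bp). Replicates were not pooled. The fold of each peak, its pileup divided by local background, was computed by the authors with MACS2 and used as deposited. The deposited −log10 p and −log10 q come from the same test. The −log10 p gave back, with the fold, the background under each peak, and −log10 q served for a stricter alternative. The deposited score is a rescaled −log10 q and was not used.

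Peaks on the autosomes and chromosome X were merged over the 8 lists, and each region took its highest peak per library. Gene spans were from GENCODE 44. Log2 fold was tested with limma 3.58.1 (R 4.3.3) in a fit over all 4 stages with Benjamini-Hochberg adjustment over all regions. In regions with a peak in every library, each library was centred on its median. The same shifts were used for regions with a peak in both libraries of at least 1 stage, in which a library without a peak was set at its call limit, the lowest fold called over the genome-mean background. Peaks per window were tested as log2 of the count plus 0.5 per 100000 peaks, in genes with a mean of at least 2 peaks. The tests were checked on simulated data, with known changes at CM. Over regions with a peak in every library, 4.17% of log2 changes of 0.5 were recovered, 60% of 1 and 98.6% of 2. Over regions with a peak in both libraries of a stage, 13.0% of changes of 1 were recovered, 50.9% of 2 and 41.4% of 3. Few regions were changed in the simulations, and this second one held 222897 regions against 131956 in the data. In the data 12.3% and 21.4% of regions were called between CM and hESC. The adjustment was thus stricter in the simulations, and these rates are not the power of the tests used. A difference that was not called is still no evidence that a region stayed the same. With 2 libraries per stage an exact test reaches no p smaller than 0.333. Fold depends on depth, background and list length, and the lists carry no read totals.

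The members, lists and tests were chosen with earlier results of these data known. Named regions were those at the canonical start, those that passed a test (up to 3 per gene and comparison) and the strongest (up to 2 per gene), and the further regions described, the boxes with 1 differing base and the CTCF core were chosen after their values or sequences were seen. Promoter CpG ratios came from RefSeq (GRCh38.p14), which matched 8 of the 10 genes. Deviations of libraries with the same replicate number correlated at -0.12 to 0.192 between stages, so the numbers were not used as pairs. One promoter sequence is not reported here. Alternatives changed the centring, background, peak threshold, list length, window, filter, value without a peak and libraries used.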

Additional observations from a re-analysis of the deposited data

How the results depend on the processing

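No difference called in a main fit, in a named region or window, reversed its direction under any alternative. Named regions that were not called were not checked in this way. Direction was not checked in this way for the counts, and their split into higher and lower, or gained and lost, moved as given above. For the named regions and windows, the call was kept in 145 and lost in 63 of the fits without 1 library, and kept in 166 and lost in 36 of the other alternatives. The counts below are called regions (or genes), and where they moved by more than 1.5 times the cause was not tested.

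Among the 22 regions with a peak in every library, CP against MES gave 0 and with a genome-mean background 1, CM against CP gave 0 and 2, and CM against hESC gave 2 and 8. CM against hESC gave 1 without centring, 1 with lists of equal length and 1 with the median of the peaks in a region. Leaving out 1 library gave 0 to 1 from hESC to MES, 0 to 1 from MES to CP, 0 to 1 from CP to CM, and 1 to 3 between CM and hESC.

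Among the 76 regions, CP against MES gave 3, and 5 both without centring and with a genome-mean background. CM against CP gave 2, then 8 with quantile normalisation, 13 with a genome-mean background, 4 with lists of equal length, 1 with the median of the peaks and 10 with a fold of 1 for a library without a peak. CM against hESC gave 12, then 22 with quantile normalisation, 23 with a genome-mean background, 19 with the replicate block and 20 with a fold of 1. Without 1 library the counts were 3 to 7 from hESC to MES, 0 to 12 from MES to CP (12 without CP replicate 1 and 0 without CP replicate 2), 0 to 2 from CP to CM, and 7 to 15 between CM and hESC, lowest without hESC replicate 2.

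Regions gained from hESC to MES numbered 3, and 5 with lists of equal length, 16 with a peak in either library and 1 with a window of 5 kb, and regions lost 2, 19 with either library and 4 with a window of 50 kb. From MES to CP 3 were gained (1 at −log10 q of at least 5, 17 with either library) and 2 lost (1 with equal lists, 16 with either library, 4 at 50 kb). From CP to CM 3 were gained (1 at −log10 q of at least 5, 5 with equal lists, 17 with either library, 6 at 50 kb) and 14 lost (7 with equal lists, 32 with either library). Between hESC and CM 4 were gained (9 with equal lists, 20 with either library, 9 at 50 kb) and 15 lost (9 with equal lists, 37 with either library, 23 at 50 kb). Leaving out 1 library, which leaves its stage with 1 list, gave 3 to 14 gained and 2 to 16 lost from hESC to MES, 3 to 14 and 4 to 14 from MES to CP, 3 to 14 and 14 to 26 from CP to CM, and 4 to 17 and 15 to 33 between hESC and CM.

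The 2 gene windows became 1 with a window of 5 kb, a mean of at least 5 peaks, no filter, −log10 q of at least 5 or the replicate block, and 0 with lists of equal length or no scaling to the list, and 0 to 2 without 1 library. Paired by replicate number, as a replicate block, the fit lost the PDGFRA window (adjusted p = 0.0518). A genome-mean background also ended the CM against hESC calls of POSTN (adjusted p = 0.160), PDGFRB intron 1 (0.160), MYH11 at 35.0 kb (0.0664) and TBX18 at 35.8 kb (0.141) and 78.4 kb (0.0515). Over all regions with a peak in both libraries of a stage, the CM against hESC count was 28196 and ran from 15222 to 38305.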
